A study of Homo sapiens with 77 samples.

Results

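The genes described here are 37 genes of protein folding and stress signalling in the endoplasmic reticulum, taken from a fixed list of names and followed through 2 RNA-seq experiments on human lymphoma cell lines. The list was drawn up with earlier results of these data known and uses gene names only. All 37 were found among the 35813 genes of the MI-503 count table and among the 21455 genes of the drug combination count table. By role they fall into 5 classes, namely 11 chaperones and their cofactors, 5 disulfide isomerases, 7 genes of translocation, signal peptide cleavage and export, 8 genes of degradation, and 6 sensors and transcription factors. The last class also holds WFS1, a calcium-regulating membrane protein, and counts of it include that gene. The series holds 77 samples, of which 32 are the RNA-seq libraries used here.

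In the first experiment KARPAS422, DB, Farage and SUDHL5 cells received MI-503, a small molecule that blocks the contact of menin (MEN1) with MLL, at 0.8 µM for 3 days, or DMSO. In the second, KARPAS422 and SuDHL10 cells received EPZ-6438 (tazemetostat, an EZH2 inhibitor) with VTP50469 (another inhibitor of the menin and MLL contact), EPZ-6438 alone, VTP50469 alone, or the control (CTR). EPZ-6438 was given at 1 µM and VTP50469 at 0.33 µM, for 48 h in KARPAS422 and for 24 h in SuDHL10. Doses and times are those of the study's legends. All are diffuse large B cell lymphoma lines. The study gives KARPAS422, DB and SuDHL10 as EZH2 mutant and Farage and SUDHL5 as EZH2 wildtype. Each group has 2 libraries. Nothing says that they came from separate cultures, so the p-values measure only the spread between these libraries, which may be technical. The lines were not authenticated according to the study, and each stands for itself only.

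The endoplasmic reticulum folds secreted and membrane proteins with the help of chaperones such as BiP (HSPA5) and calreticulin (CALR), and disulfide isomerases join their cysteines. Proteins that do not fold are moved back to the cytosol and degraded. When unfolded proteins collect in the lumen, the sensors IRE1 (ERN1), PERK (EIF2AK3) and ATF6 switch on the unfolded protein response: IRE1 splices the mRNA of XBP1, ATF6 is cut to give a free transcription factor, and PERK slows translation and favours ATF4. In B cells this system expands when the cell turns into an antibody-secreting plasma cell. Counts per gene measure neither the splicing of XBP1 nor the protein changes that mark the sensors as active.

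The promoters of several of these genes are known to hold the endoplasmic reticulum stress element, a pair of short sites (CCAAT and CCACG) that the factors ATF6 and XBP1 are known to read together with NF-Y. RefSeq promoter windows (GRCh38.p14, 250 bases before to 50 bases after the start) were matched for 33 of the 37 genes and searched on both strands. The element ERSE (CCAAT, then 9 bases of any kind, then CCACG) was in 6 of the 33 windows (18.2%) and in 22 of 27305 windows of all genes (0.0806%). The compact element ERSE-II (ATTGG, then 1 base of any kind, then CCACG) was in 3 of the 33 (9.09%) and in 15 of all windows (0.0549%). These 9 genes are HSPA5, HSP90B1, CALR, CANX, CRELD2, XBP1, SDF2L1, HERPUD1 and HYOU1. Another element, UPRE (TGACGTGG), was in 1 of the 33 windows (3.03%), that of HYOU1, where it overlaps an ERSE-II, against 0.795% of all windows. Of 47 matched windows of other endoplasmic reticulum genes, 6 held a UPRE (12.8%), 1 an ERSE (2.13%) and 0 an ERSE-II. The ATF4 type letters TGATGNAA were in 1 of the 33 (3.03%) against 3.67% of all windows. A match describes these letters only and is no measure of binding. The stretches below belong to 6 of these 9 genes, whose values are given further on. Both sites of an element are in capitals, and each stretch is written on the strand of its gene. CGTGG and ATTGG are the same sites read from the opposite strand.
HSPA5: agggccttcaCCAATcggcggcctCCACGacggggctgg
CALR: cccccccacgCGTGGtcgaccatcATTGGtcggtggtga
CANX: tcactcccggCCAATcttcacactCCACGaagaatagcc
XBP1: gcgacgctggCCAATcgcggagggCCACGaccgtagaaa
HERPUD1: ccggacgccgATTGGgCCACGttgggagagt
SDF2L1: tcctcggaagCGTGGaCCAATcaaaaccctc
The first 4 hold an ERSE, read forward in HSPA5, CANX and XBP1 and in reverse in CALR. HERPUD1 and SDF2L1 hold the compact ERSE-II, forward and in reverse. They lie at chr9:125241381-125241419 on the minus strand (HSPA5), chr19:12938374-12938412 on the plus strand (CALR), chr5:179698768-179698806 on the plus strand (CANX), chr22:28800593-28800631 on the minus strand (XBP1), chr16:56932015-56932045 on the plus strand (HERPUD1) and chr22:21642104-21642134 on the plus strand (SDF2L1).

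Depth ranged over 13034958 to 54883332 counts a library with MI-503 or DMSO, and over 8956156 to 31573027 in the drug combination. The 37 genes took 0.4419% to 0.7093% and 0.4892% to 0.8938% of them. All 7 B cell markers on the list used were detected in every library, with summed levels of 3003 to 4022 and 2895 to 5916 CPM (counts scaled to a common library size). T cell markers summed to 1.708 to 185.6 and 6.236 to 297.1 CPM, and were highest in KARPAS422 in both experiments. Of the plasma cell markers, PRDM1, TNFRSF17 and JCHAIN were listed at 0 in all 16 libraries of the drug combination, JCHAIN also in KARPAS422, which had 43.06 to 70 CPM of it in the MI-503 experiment. The same holds for the members TXNDC5 and DERL3, which were listed at 0 counts in all 16 libraries and are not compared there. Levels were therefore compared within an experiment only. In DB, the MI-503 libraries held 46170498 and 52236459 counts and the DMSO libraries 14695930 and 15474692, so depth and treatment cannot be told apart in that line. In Farage, MI-503 replicate 1 held 88.01 CPM of the epithelial marker list, against 14.19 to 34.25 CPM in the other libraries of the experiment, and 26.39 CPM of the erythroid list, where no other library exceeded 0.5413 CPM. In the drug combination the KARPAS422 pair with both drugs was the least alike, with a chi-square of 41.85 per gene between its replicates, where the lowest pair of that experiment had 1.698.

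Untreated SUDHL5 cells had the lowest levels of most of the machinery. Of the 37 genes, 10 were higher and 24 lower in SUDHL5 with DMSO than the mean of the other 3 lines, at an adjusted p under 0.1, the threshold used for every call here. Of all 14066 genes tested, 42% were higher and 37% lower. The median log2 difference of the 37 genes was -0.59, against 0.02 over all genes. The 11 chaperones and the 5 disulfide isomerases were all lower. HSPA5 had 188 and 176.6 CPM in SUDHL5 and 363.4 to 578.8 CPM in the DMSO libraries of the other lines, a log2 difference of -1.28 ± 0.03 (SE, n = 2 libraries a line, adjusted p = 2.29e-14). HSP90B1 (the Hsp90 chaperone of the lumen) had 190.5 and 185.5 CPM against 394.9 to 884.2 CPM. For both genes the SUDHL5 libraries lay below every library of the other lines. Against this, EDEM1, which steers misfolded glycoproteins to degradation, had 971.5 and 925.7 CPM in SUDHL5, 178.8 and 183.6 CPM in KARPAS422 and 85.27 and 91.46 CPM in DB, and was higher in SUDHL5 by 2.45 ± 0.03. Divided by transcript length, EDEM1 was the most abundant of the 37 genes in SUDHL5 with DMSO, at 155.2 ± 5.29 CPM per kb (SD, n = 2). PERK (EIF2AK3) was also higher in SUDHL5, by 1.93 ± 0.05, with 178.5 and 151.6 CPM against 39.07 to 47.88 CPM in the others.

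In KARPAS422 with DMSO, 22 of the 37 genes were higher and 12 lower than the mean of the other lines, while 43.9% and 37.3% of all genes were. Its HSP90B1 (884.2 and 864.2 CPM) and XBP1 (115.1 and 122.9 CPM) were the highest of the 4 lines. XBP1 was higher by 1.74 ± 0.04 and the sensor ATF6 by 1.10 ± 0.03. In DB 16 were higher and 15 lower (41.5% and 40.6% of all genes), among them HYOU1, a large lumenal chaperone, higher by 0.97 ± 0.03 and EDEM1 lower (-2.17 ± 0.04). Farage had 20 higher and 11 lower (40.8% and 38.5% of all genes). Its XBP1, at 9.982 and 10.67 CPM, was the lowest of the lines (-2.87 ± 0.07), and its HERPUD1, a membrane protein of the degradation complex, was the highest, at no more than 563.3 CPM (2.23 ± 0.03). Counted over the 37 genes with DMSO, SUDHL5 had the lowest mean level for 21 and the highest for 7, and KARPAS422 the highest for 12 and the lowest for 2. DB was highest for 7 and lowest for 9, and Farage highest for 11 and lowest for 5. With MI-503, SUDHL5 and DB were each highest for 13 and lowest for 8. KARPAS422 was then highest for 3 and lowest for 10, and Farage highest for 8 and lowest for 11.

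MI-503 lowered most of these genes in KARPAS422 and by little. Of 36 that passed the filter on low counts, 3 rose and 26 fell with MI-503, against 25.5% and 26.3% of 14495 genes, and the median log2 change was -0.25, against 0.01 over all genes. At more than 1.5-fold 1 rose and 2 fell (7.36% and 2.75% of all genes). By class, 10 of 11 chaperones, 3 of 5 disulfide isomerases, 5 of 7 translocation genes, 6 of 8 degradation genes and 2 of the 5 tested sensors and factors fell. Leaving out 1 library at a time left 20 to 25 lower.

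XBP1 fell the most. It had 46.81 and 50 CPM with MI-503, against 115.1 and 122.9 CPM with DMSO, a log2 change of -1.31 ± 0.05 (adjusted p = 2.2e-08). Both MI-503 libraries lay far below both DMSO libraries. HERPUD1 had 55.81 and 56.26 CPM with MI-503, against 102 and 99.61 CPM with DMSO (-0.85 ± 0.04, adjusted p = 6.78e-08). EDEM1 had 121.9 and 120.2 CPM, against 178.8 and 183.6 CPM with DMSO (-0.58 ± 0.03), with no overlap between the groups in either gene. Calnexin (CANX), the membrane chaperone of glycoproteins, had 368.8 and 367.2 CPM, against 495.2 and 492.7 CPM (-0.43 ± 0.03), and calreticulin, its lumenal partner, 423.4 and 427.6 CPM, against 564 and 578.5 CPM (-0.43 ± 0.03). HSPA5 had 329.4 and 342.6 CPM, against 414.8 and 415.9 CPM (-0.31 ± 0.03). In all of these both MI-503 libraries lay below both DMSO libraries. Apart from XBP1 and HSPA5 they were named for a small p or with values known, so their separation is no added support. The share of all genes without overlap was not counted, here or where overlap is mentioned elsewhere.

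The sensors differed among themselves. ATF6 fell, with 106.2 and 107.9 CPM with MI-503 and 131.1 and 129.1 CPM with DMSO (-0.28 ± 0.03). ERN1 was not called, with 4.913 and 4.455 CPM against 3.719 and 4.912 CPM (0.12 ± 0.15, adjusted p = 0.55), and neither was EIF2AK3 (0.07 ± 0.05, adjusted p = 0.266), whose 51.52 and 47.72 CPM overlapped the 47.03 and 47.88 CPM with DMSO. The members that rose were SSR3, a subunit of the translocon-associated complex, with 155 and 156 CPM against 132.3 and 128.7 CPM (0.25 ± 0.03), EDEM2, a mannosidase of the degradation path, with 27.45 and 28.83 CPM against 24.26 and 23.41 CPM (0.23 ± 0.06), and WFS1, a calcium-regulating membrane protein. WFS1 was low, with 1.714 and 1.473 CPM against 0.5413 and 0.8883 CPM (1.16 ± 0.30), and it was not called without MI-503 replicate 1 (adjusted p = 0.106). In the same libraries the plasma cell list summed to 93.98 and 97.1 CPM with MI-503 and 68.07 and 70.93 CPM with DMSO, with IRF4 at or below 0.1414 CPM. The part of that list in these changes was not tested. In bulk libraries such as these, fewer cells that express a gene and less RNA of it per cell cannot be told apart.

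In SUDHL5, MI-503 raised the machinery in nearly every class. Of 36 tested, 29 rose and 3 fell, against 26.3% and 28.7% of 13396 genes, with a median log2 change of 0.49, against 0.00 over all genes. At more than 1.5-fold, 17 rose and 0 fell (6.71% and 7.41% of all genes). All 11 chaperones and all 5 disulfide isomerases rose, with class medians of 0.92 and 0.61, as did 5 of 7 translocation genes, 5 of 8 degradation genes and 3 of 5 tested sensors and factors. The summed level of the chaperone class was 2679 to 2863 CPM with MI-503 and 1186 to 1264 CPM with DMSO.

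Calreticulin rose the most, with 845.8 and 896.4 CPM with MI-503, against 270.4 and 243.9 CPM with DMSO, which is 3.41-fold (log2 change 1.77 ± 0.04, adjusted p = 8.17e-08). HSPA5 had 516 and 559.3 CPM, against 188 and 176.6 CPM (1.57 ± 0.04), and HSP90B1 454.6 and 497.5 CPM, against 190.5 and 185.5 CPM (1.36 ± 0.04). The groups were far apart in each. SPCS3, a subunit of the signal peptidase that trims new chains, had 384.3 and 412.1 CPM, against 216.9 and 217.7 CPM (0.89 ± 0.04). The BiP cofactor SDF2L1 had 21.43 and 23.9 CPM, against 10.04 and 10.24 CPM (1.19 ± 0.09), and the secreted stress factor MANF 70.87 and 79.36 CPM, against 34.71 and 37.21 CPM (1.10 ± 0.07). Among the isomerases PDIA4 had 156 and 165 CPM, against 101.7 and 99.15 CPM (0.69 ± 0.04).

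XBP1 rose as well, with 75.66 and 82.66 CPM with MI-503 and 66.89 and 62.15 CPM with DMSO (0.31 ± 0.05, adjusted p = 0.00058). ERN1 rose, at 19.34 and 23.3 CPM against 12.78 and 14.63 CPM (0.70 ± 0.11). ATF6 was not called, at 52.68 and 52.04 CPM against 54.86 and 56.72 CPM (-0.08 ± 0.06, adjusted p = 0.339). SEC61B, the beta subunit of the translocation channel, fell, with 64.75 and 68.07 CPM against 78.98 and 80.76 CPM (-0.25 ± 0.05). DERL3, a degradation channel protein, had 17.79 and 19.28 CPM against 21.91 and 20.56 CPM (-0.18 ± 0.08, adjusted p = 0.0861). EIF2AK3 was called lower (-0.22 ± 0.07, adjusted p = 0.033) although its 125.7 and 154 CPM overlapped the 178.5 and 151.6 CPM with DMSO. The number of members that fell was 1 without DMSO replicate 1 or without MI-503 replicate 1, and EIF2AK3 was then not called (adjusted p = 0.127 and 0.221). The plasma cell list summed to 300.9 to 313.3 CPM with MI-503 and 307.7 to 323 CPM with DMSO, with JCHAIN at 178.6 and 186.7 CPM against 223.8 and 244.7 CPM and IRF4 at or below 0.1675 CPM. The T cell list summed to 54.39 to 58.83 CPM with MI-503 and 77.27 to 85.52 CPM with DMSO, nearly all of it TRAC, with CD2 at 0. The part of these lists was not tested.

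**Figure D1:**
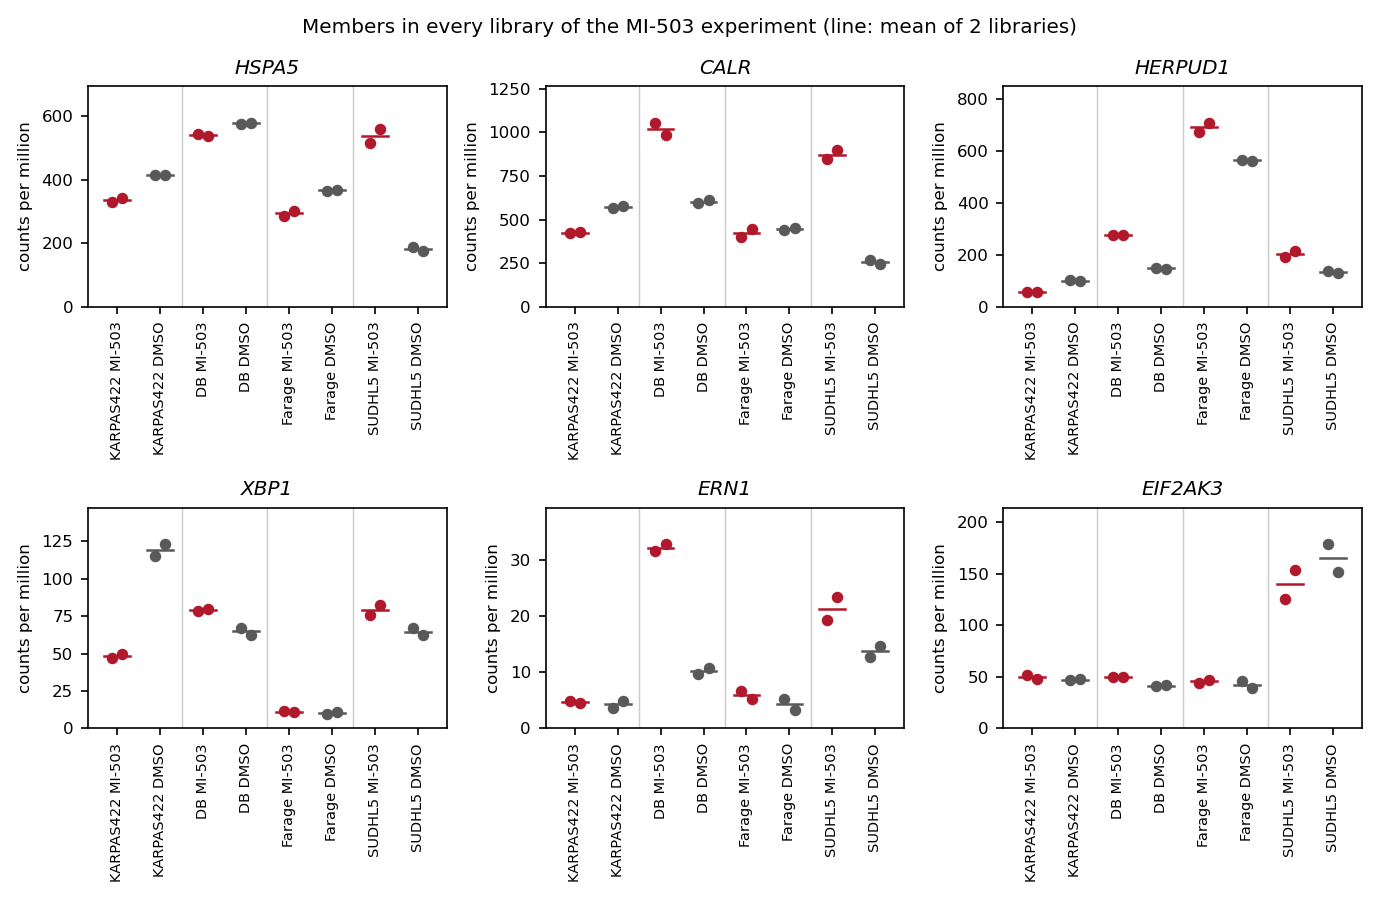
Levels in CPM of HSPA5, CALR, HERPUD1, XBP1, ERN1 and EIF2AK3 in each library of KARPAS422, DB, Farage and SUDHL5, with MI-503 left of DMSO in each line; each point is 1 library and each short line the mean of 2. CALR lies at 845.8 and 896.4 CPM with MI-503 in SUDHL5, above its DMSO libraries, while XBP1 in KARPAS422 lies at 46.81 and 50 CPM, below its DMSO libraries.

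Whether the change with MI-503 differed between KARPAS422 and SUDHL5 was tested as an interaction over their 8 libraries. That the directions differ in these lines was known from earlier results of these data, so the result is no independent finding. The change was lower in KARPAS422 for 30 of the 37 genes and higher for 1, against 17% and 19% of 15522 genes, with a median difference of -0.77 against 0.02 over all genes. At more than 1.5-fold, 23 were lower and 0 higher (3.76% and 6.83% of all genes). By class, all 11 chaperones, all 5 isomerases, 5 translocation genes, 6 degradation genes and 3 sensors and factors had the lower change in KARPAS422. Without single libraries the count of lower changes was 28 to 30.

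Of the 37 genes, 22 fell in KARPAS422 and rose in SUDHL5. The difference was called for all 22, which opposite calls in the same libraries make nearly certain. They are 10 chaperones and cofactors (HSPA5, HSP90B1, CALR, CANX, HYOU1, DNAJB11, DNAJC3, SDF2L1, MANF and CRELD2), 3 isomerases (PDIA3, PDIA6 and P4HB), SEC61A1, SSR1 and SEC24D, 5 degradation genes (HERPUD1, EDEM1, SEL1L, SYVN1 and DERL1) and XBP1. None went the other way. Of all genes, 26.3% fell in KARPAS422 and 26.3% rose in SUDHL5, and the share that did both was not counted. SSR3 rose and SEC61B fell in both lines, with differences of -0.12 ± 0.07 and 0.09 ± 0.07 that did not pass the test (adjusted p = 0.217 and 0.362).

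The differences of the change were -2.21 ± 0.05 for CALR (log2, adjusted p = 8.26e-11), -1.89 ± 0.05 for HSPA5, -1.62 ± 0.05 for HSP90B1 and -1.48 ± 0.06 for HERPUD1. XBP1 had a difference of -1.62 ± 0.07, to which the fall in KARPAS422 contributed -1.31 and the rise in SUDHL5 0.31. In HSPA5 the larger share was the rise in SUDHL5 (1.57, against -0.31 in KARPAS422). For the sensors the differences were small and depended on single libraries. ERN1 had -0.57 ± 0.20 (adjusted p = 0.0452), which was not called without SUDHL5 DMSO replicate 1 (adjusted p = 0.237), SUDHL5 MI-503 replicate 2 (0.27), KARPAS422 DMSO replicate 2 (0.21) or KARPAS422 MI-503 replicate 2 (0.124). ATF6 had -0.22 ± 0.07 (adjusted p = 0.032), not called without SUDHL5 DMSO replicate 1 (0.264). EIF2AK3, the only member with a higher change in KARPAS422, had 0.28 ± 0.10 (adjusted p = 0.0488) and was not called without replicate 1 of any of the 4 groups (0.118 to 0.366).

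**Figure D2:**
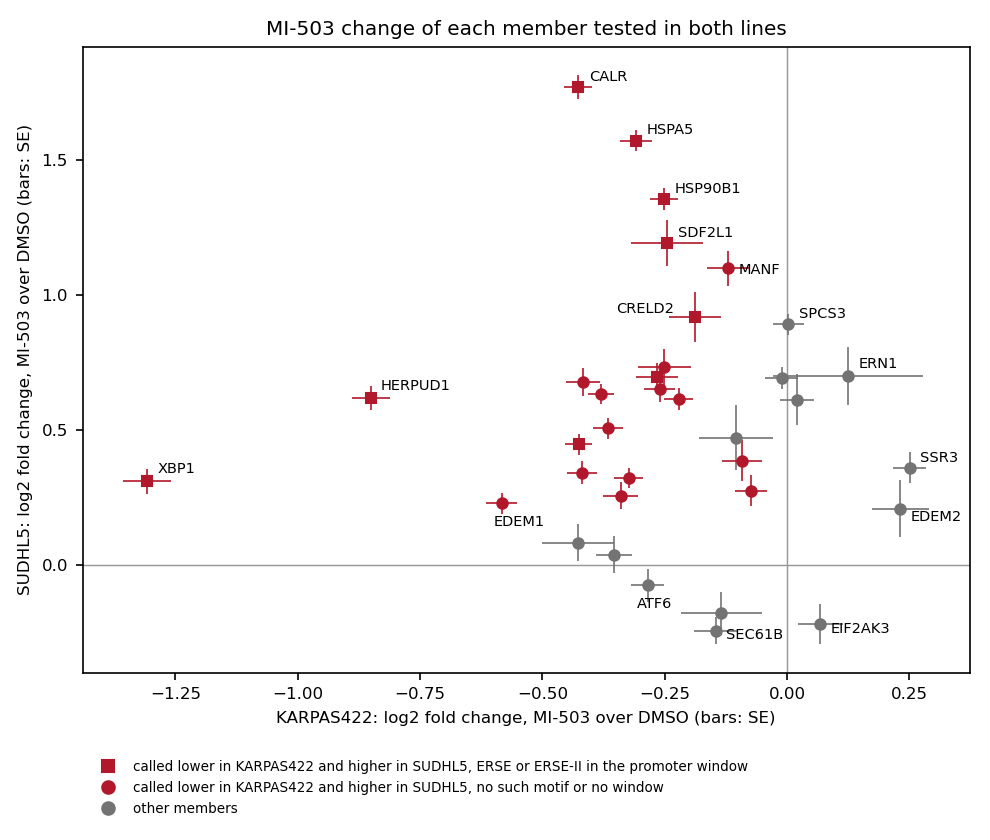
Log2 change with MI-503 in SUDHL5 against that in KARPAS422 for the members tested in both lines, with standard errors as bars; squares are genes with an ERSE or ERSE-II in the promoter window and red marks the 22 genes that fell in KARPAS422 and rose in SUDHL5. CALR and HSPA5 lie at the SUDHL5 end (1.77 and 1.57) and XBP1 at the KARPAS422 end (-1.31).

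In DB, the other EZH2 mutant line with MI-503, members were called in both directions. Of 35 tested, 18 rose and 10 fell, against 34.5% and 34.7% of 13942 genes, and the median log2 change was 0.08 against 0.02 over all genes. Of the 11 chaperones 9 rose and 1 fell, and all 4 tested sensors and factors rose. Of the 7 translocation genes 5 fell, of the 5 isomerases 3 fell and P4HB rose, and of the degradation genes 4 rose (HERPUD1, SEL1L, EDEM2 and DERL3) and SYVN1 fell. The classes were not tested against each other. HERPUD1 had 277 and 275.2 CPM with MI-503, against 151.3 and 145.1 CPM with DMSO (0.90 ± 0.03, adjusted p = 3.03e-10). SEL1L, the scaffold of the degradation complex, had 226.6 and 228 CPM, against 137.3 and 137.6 CPM (0.73 ± 0.03). CALR had 1054 and 985.5 CPM, against 595.3 and 612 CPM (0.76 ± 0.03), and HSP90B1 822.3 and 808.9 CPM, against 515 and 537 CPM (0.64 ± 0.03). None of these groups overlapped. The plasma cell list summed to 51.48 to 51.82 CPM with MI-503 and 62.84 to 64.22 CPM with DMSO, and the epithelial list to 31.66 to 32.2 CPM and 19.32 to 21.25 CPM. Their part was not tested.

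ERN1 rose 3.13-fold in DB, with 31.59 and 32.74 CPM against 9.77 and 10.8 CPM (1.65 ± 0.08). XBP1 rose by little, at 78.48 and 79.74 CPM against 66.96 and 62.51 CPM (0.29 ± 0.04), as did ATF6, at 84.13 and 81.73 CPM against 70.85 and 75.13 CPM (0.19 ± 0.04), and EIF2AK3, at 50.19 and 49.47 CPM against 41.13 and 42.09 CPM (0.26 ± 0.05). Of the chaperones HSPA5 and SDF2L1 did not rise. SDF2L1 was not called, and for HSPA5 544.6 and 536 CPM against 575.3 and 578.8 CPM gave -0.09 ± 0.03, a call that was lost without MI-503 replicate 2 (adjusted p = 0.129), with total counts as scale (0.586) and in a fit of all 16 libraries (0.109). The isomerases that fell were TXNDC5, with 104.8 and 109.7 CPM against 146.1 and 144.2 CPM (-0.43 ± 0.04), PDIA3, with 379 and 375.2 CPM against 442.7 and 438.4 CPM (-0.22 ± 0.03), and PDIA4, with 224.8 and 221.3 CPM against 260.5 and 267.4 CPM (-0.24 ± 0.03). SYVN1, the ubiquitin ligase of the degradation complex, fell with 162.7 and 155 CPM against 209.5 and 198.2 CPM (-0.35 ± 0.04). Exons of TXNDC5, DERL3, PDIA6, SEC61A1, SYVN1, PDIA3 and CANX, among others, overlap those of neighbouring genes, so some of their reads may belong to the neighbour.

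Against DB, the change in KARPAS422 was lower for 25 members and higher for 6 (19.7% and 27.2% of 15782 genes). In 13 genes a fall in KARPAS422 stood against a rise in DB, and 8 genes fell in both lines. All 13 differences were called, which opposite calls in the same libraries make nearly certain. Of all genes, 26.3% fell in KARPAS422 and 34.5% rose in DB, and the share that did both was not counted. Among the called differences HERPUD1 had the largest (-1.74 ± 0.05), followed by XBP1 (-1.59 ± 0.07) and ERN1 (-1.50 ± 0.17).

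Farage changed less. Of 37 tested, 5 rose and 14 fell, against 12.3% and 14.7% of 12659 genes, with a median of -0.06 against 0.01 over all genes. HSPA5 had 286.7 and 301.3 CPM with MI-503, against 363.4 and 369.2 CPM with DMSO (-0.35 ± 0.04, adjusted p = 0.000206). P4HB, the beta subunit of prolyl hydroxylase and itself an isomerase, had 216.2 and 247.2 CPM, against 302.8 and 298.2 CPM (-0.41 ± 0.05), and PDIA3 376 and 407.2 CPM, against 451.7 and 462.2 CPM (-0.26 ± 0.04). These groups did not overlap. CANX had 436.5 and 467.5 CPM against 496.3 and 517.5 CPM (-0.20 ± 0.04). HERPUD1 rose, with 673.6 and 707.2 CPM against at most 563.3 CPM (0.26 ± 0.04), and so did SSR3, with 129.5 and 136.2 CPM against 117 and 117 CPM (0.15 ± 0.04), TXNDC5, with 100.8 and 119.3 CPM against 95.61 and 86.98 CPM (0.24 ± 0.06), and WFS1, with 2.967 and 2.5 CPM against 1.569 and 1.243 CPM (0.91 ± 0.30). XBP1 was not called, at 11.56 and 11.08 CPM against 9.982 and 10.67 CPM (0.09 ± 0.12, adjusted p = 0.652), nor were ERN1 (6.613 and 5.245 CPM against 5.276 and 3.272 CPM), ATF6 (54.64 and 56.61 CPM against 52.76 and 54.25 CPM) or EIF2AK3 (44.38 and 47.29 CPM against 45.99 and 39.07 CPM).

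In Farage the T cell list summed to 55.63 to 63.68 CPM with MI-503 and 74.93 to 80.07 CPM with DMSO, again mostly TRAC, and its part was not tested. The Farage counts rested on single libraries. Without DMSO replicate 1 they were 1 higher and 5 lower, and without DMSO replicate 2 1 higher and 3 lower. CANX was not called without DMSO replicate 2 (adjusted p = 0.157). Without MI-503 replicate 1, the library with the epithelial and erythroid markers, they were 4 higher and 12 lower. The change in KARPAS422 was lower than in Farage for 18 members and higher for 0, against 14.7% and 9.52% of 15228 genes. By edgeR at an unadjusted p under 0.05 these were 20 and 0, and by DESeq2 9 and 0. Of all genes these gave 2782 lower and 1818 higher, and 1129 and 1462. Without single libraries the lower count ranged from 7 (Farage DMSO replicate 1) to 21. It was 9 without KARPAS422 DMSO replicate 1, 11 without replicate 2, 11 and 10 without KARPAS422 MI-503 replicates 1 and 2, and 9 without Farage DMSO replicate 2. Of 14 genes that fell in both lines, 7 differed between them. HERPUD1 fell in KARPAS422 and rose in Farage (difference -1.14 ± 0.05), and XBP1 also differed (-1.41 ± 0.11).

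**Figure D3:**
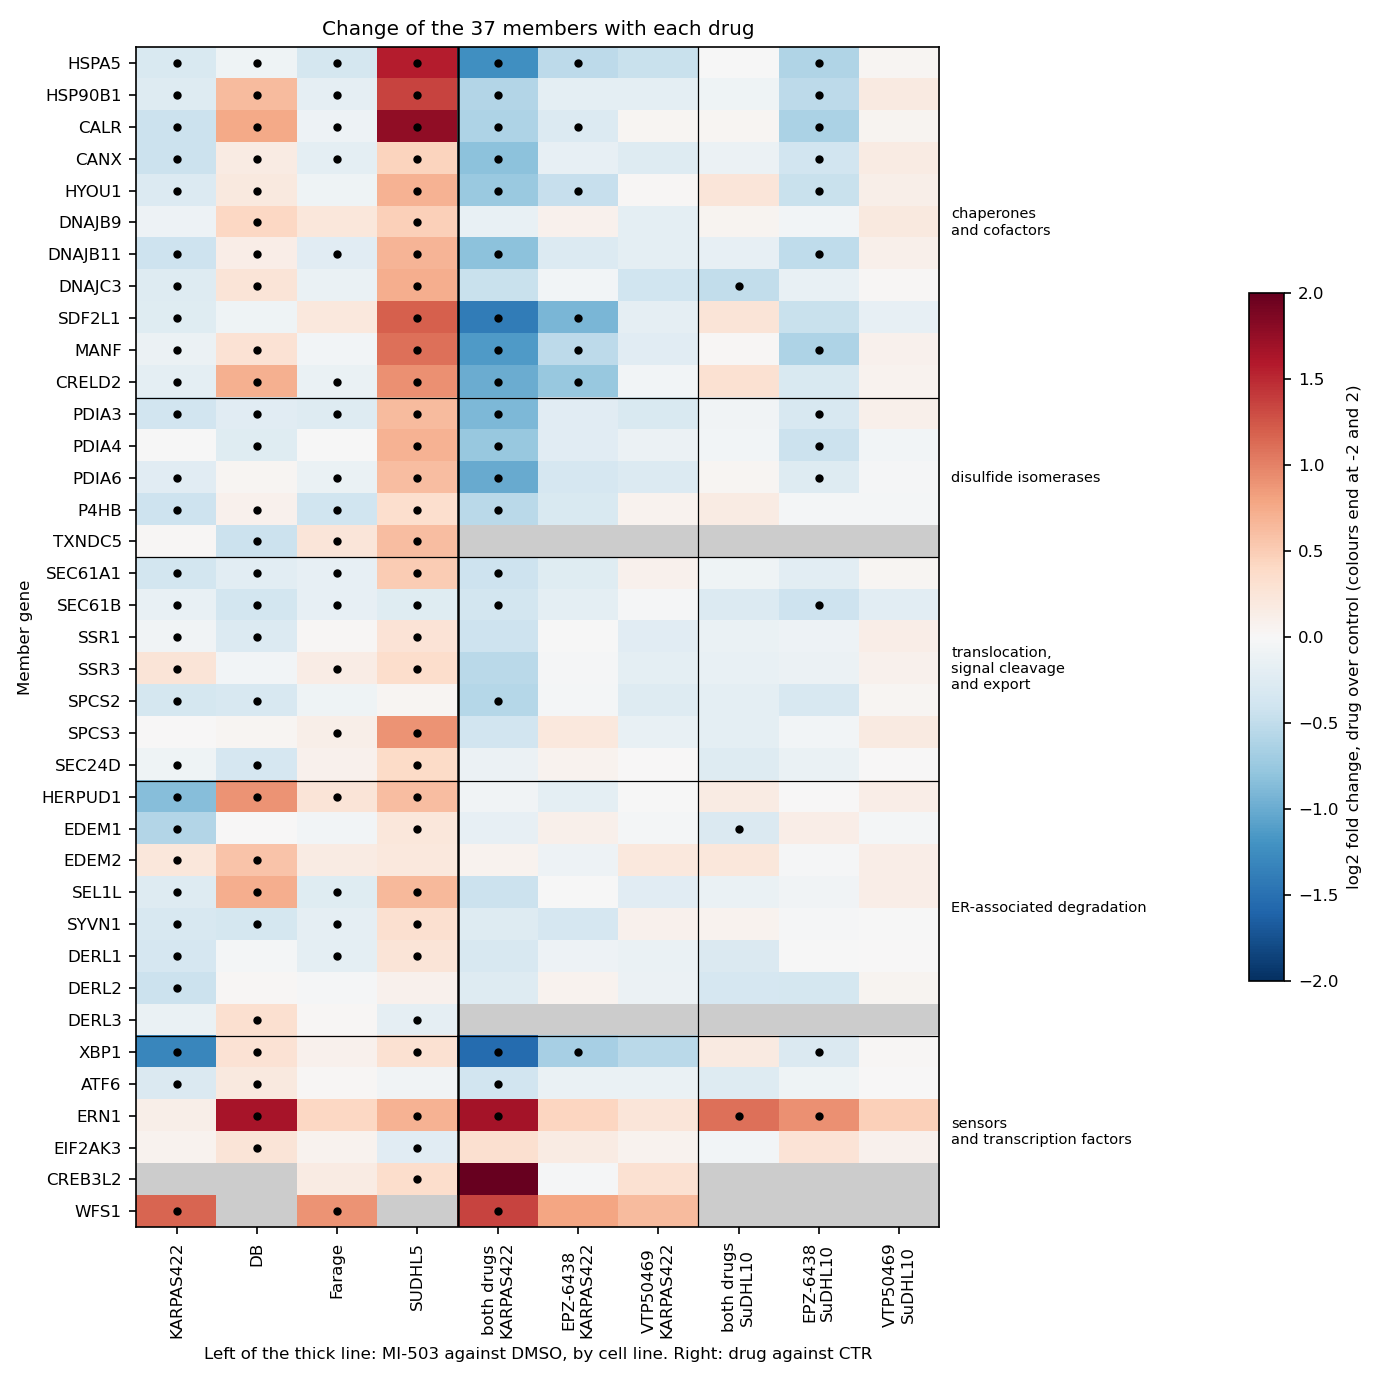
Log2 changes of the 37 genes (rows, by class) in 10 comparisons (columns); colours end at -2 and 2, dots mark members called at an adjusted p under 0.1, and grey cells were not tested. The SUDHL5 column shows 29 members higher and the KARPAS422 column 26 lower with MI-503, and the VTP50469 columns hold 0 calls.

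The 9 genes with an ERSE or ERSE-II in the promoter window fell in KARPAS422 with MI-503 in 9 of 9 cases (26.3% of all genes) and rose in SUDHL5 in 9 of 9 (26.3% of all genes), with medians of -0.31 and 0.92. Among the 24 matched genes with neither element, 3 rose and 14 fell of 23 tested in KARPAS422 (median -0.15), and 17 rose and 2 fell of 23 tested in SUDHL5 (median 0.36). In DB 7 of the 9 rose and 1 fell (34.5% and 34.7% of all genes), and in Farage 1 rose and 5 fell (12.3% and 14.7%). Of the 22 genes that fell in KARPAS422 and rose in SUDHL5, 9 have an element. All of the 9 but XBP1 and HERPUD1 are chaperones or cofactors. Nearly all of that class fell in KARPAS422 and all of it rose in SUDHL5, so element and class cannot be told apart. These counts describe the genes and no test was made of them.

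Other lists of the same system, also written with earlier results of these data known, moved partly apart from the 37 genes. On a list of 55 other genes of the endoplasmic reticulum and its export path, 34 rose and 6 fell of 53 tested in SUDHL5 with MI-503 (26.3% and 28.7% of all genes), with a median of 0.21, among them the retrieval receptor KDELR2 (0.95) and the coat protein SEC31A (0.93). In KARPAS422 7 rose and 28 fell of 54 (25.5% and 26.3% of all genes), including HSPA13 (-0.64) and RPN2, a subunit of the glycan transferase (-0.40). The ATF4 and CHOP list of 14 genes, the arm below PERK, did not follow the chaperones in SUDHL5. There 4 rose and 7 fell (median -0.20), with DDIT3, which encodes CHOP, at 0.62 and asparagine synthetase (ASNS) at -0.78. In KARPAS422 2 rose and 10 fell (median -0.80), with CHAC1 at -3.50, ATF5 at -2.18 and ATF4 at -1.30. In DB 10 rose and 2 fell (34.5% and 34.7% of all genes), with a median of 0.86 and DDIT3 at 1.53. In Farage 1 rose and 5 fell (12.3% and 14.7% of all genes). The list summed to 1006 to 1107 CPM with MI-503 and 2389 to 2474 CPM with DMSO in KARPAS422. Of 17 chaperones of the cytosol and mitochondria, 3 rose and 10 fell in SUDHL5 and 4 rose and 10 fell in KARPAS422.

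In the drug combination, KARPAS422 cells treated with both drugs had lower levels of the folding genes. Of 35 tested, 2 rose and 18 fell against CTR, and 23.5% and 25.2% of 13223 genes did. The median log2 change was -0.43, against 0.10 over all genes, a difference of -0.53 from all genes. This median was -0.91 without replicate 1 of both drugs and -0.28 without replicate 2. With total counts as scale, the median over all genes moved to 0.33, the counts were 4 higher and 15 lower, and the members stood -0.55 from all genes. At more than 1.5-fold, 2 rose and 13 fell (19.8% and 15.1% of all genes). Of the chaperones 9 of 11 fell, of the isomerases 4 of 4 tested, of the translocation genes 3 of 7, of the degradation genes 0 of 7, and of sensors and factors 2 of 6. With the replicate as a block 23 fell and 3 rose, the added falls being those of DNAJC3 (adjusted p = 0.0468), SSR1 (0.0475), SSR3 (0.0239) and the degradation genes SEL1L (0.0406) and DERL1 (0.0685). Without single libraries the counts moved as well, and the share of all genes called in those fits was not counted.

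XBP1 had 37.33 and 32.39 CPM with both drugs, 69.33 and 64.6 CPM with EPZ-6438, 68.02 and 69.58 CPM with VTP50469, and 103 and 106.1 CPM in CTR. Its change with both drugs against CTR was -1.55 ± 0.13 (adjusted p = 0.000474). HSPA5 had 494.8 and 421.6 CPM with both drugs, 756.9 and 783.7 CPM with EPZ-6438, 760.6 and 768.7 CPM with VTP50469, and 1099 and 1092 CPM in CTR (both drugs -1.22 ± 0.11). In both genes the libraries with both drugs were the lowest, those with either drug alone lay between, and CTR was the highest, without overlap. MANF had 60.47 and 52.92 CPM with both drugs, 86.93 and 93.88 CPM with EPZ-6438, 106 and 101.8 CPM with VTP50469, and 134.4 and 121.3 CPM in CTR (-1.14 ± 0.14). SDF2L1 had 27.53 and 33.11 CPM, 43.52 and 44.5 CPM, 70.51 and 67.31 CPM, and 66.64 and 97.26 CPM in the same order (-1.40 ± 0.16). PDIA6, an isomerase, had 127.8 and 108.8 CPM with both drugs, against 240.5 and 247.8 CPM in CTR (-1.01 ± 0.12). SDF2L1 with VTP50469 alone overlapped CTR, where the CTR libraries differed most.

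ERN1 rose in the same libraries, with 14.25 and 18.1 CPM with both drugs, 7.496 and 6.701 CPM with EPZ-6438, 5.538 and 6.199 CPM with VTP50469, and 4.5 and 5.935 CPM in CTR (both drugs 1.66 ± 0.21, adjusted p = 0.00167). WFS1 also rose, with 4.749 and 8.057 CPM, against 2.405 and 2.693 CPM in CTR (1.35 ± 0.34), and was not called without CTR replicate 1 (adjusted p = 0.139) or replicate 2 (0.108). ATF6 fell, with 111.5 and 96.58 CPM against 145.9 and 133.7 CPM (-0.39 ± 0.13, adjusted p = 0.0578), a call lost without CTR replicate 1 or replicate 2 of both drugs (adjusted p = 0.158 each) and with total counts as scale (0.152). EIF2AK3 (58.6 and 42.22 CPM against 41.27 and 42.04 CPM) was not called (adjusted p = 0.194). HERPUD1, which fell with MI-503 in this line, had 98.41 and 81.46 CPM with both drugs and 94.73 and 99.18 CPM in CTR, and was not called (-0.07 ± 0.13, adjusted p = 0.687). CREB3L2, a stress transcription factor, had 5 and 154 counts in the libraries with both drugs and 0 and 14 in CTR, so its fitted change of 3.46 ± 1.89 was not called (adjusted p = 0.185), but was with the replicate as a block (adjusted p = 0.0164). The plasma cell list, of which 3 or 4 of 7 markers were detected, summed to 21.82 to 29.19 CPM with both drugs and 40.89 to 46.43 CPM in CTR, mostly SDC1 (13.84 and 16.06 CPM against 38.4 and 43.47 CPM). Its part in these changes was not tested.

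EPZ-6438 alone lowered 7 of the 35 genes in KARPAS422 and raised 0, against 10% and 8.27% of all genes. By edgeR at an unadjusted p under 0.05 these were 10 and 0, and by DESeq2 11 and 0. Of all genes these gave 1951 lower and 1525 higher, and 1822 and 1165. The 7 genes were XBP1 (-0.66 ± 0.13, adjusted p = 0.0271), SDF2L1 (-0.91 ± 0.16), CRELD2 (-0.76 ± 0.12), HYOU1 (-0.46 ± 0.10), HSPA5 (-0.53 ± 0.11), MANF (-0.52 ± 0.13) and CALR (-0.27 ± 0.08), all chaperones or cofactors but XBP1. None was called without EPZ-6438 replicate 2 (adjusted p = 0.463 to 0.981). All 7 also fell with both drugs, although both comparisons use the same CTR libraries. With VTP50469 alone 0 rose and 0 fell, against 3.18% and 0.197% of all genes. By edgeR at an unadjusted p under 0.05 these were 0 and 2, and by DESeq2 0 and 3. Of all genes these gave 1366 higher and 338 lower, and 714 and 227. Here the replicate numbers went with shared deviations, and with the replicate as a block HSPA5 (adjusted p = 0.0768) and XBP1 (0.0633) fell with VTP50469.

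Set against EPZ-6438 alone, 9 members were lower with both drugs and 1 was higher (10.9% and 10% of all genes), with a median of -0.33 against 0.08 over all genes. The median was -0.82 without replicate 1 of both drugs and -0.16 without replicate 2. XBP1 (-0.89 ± 0.13, adjusted p = 0.0132) and HSPA5 (-0.69 ± 0.11) were lower and ERN1 was higher (1.23 ± 0.21). With the replicate block the counts were 18 lower and 2 higher, and with total counts as scale 9 lower and 3 higher. They were 1 lower and 0 higher without EPZ-6438 replicate 1, 0 and 0 without EPZ-6438 replicate 2, and 30 and 2 without replicate 1 of both drugs. Without replicate 2 of both drugs 2 were higher.

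SuDHL10 gave another pattern. EPZ-6438 alone lowered 12 of 33 tested members and raised 1, against 5.39% and 12.1% of 11409 genes, and the median change was -0.22 against -0.02. HSPA5 had 576.7 and 594.1 CPM with EPZ-6438, against 873.9 and 885.3 CPM in CTR (-0.60 ± 0.07, adjusted p = 0.00158), and CALR 697.5 and 656.3 CPM, against 1097 and 994.4 CPM (-0.64 ± 0.09). MANF had 76.92 and 78.57 CPM, against 119.4 and 116.4 CPM (-0.61 ± 0.10). The groups did not overlap in these 3 genes. ERN1 rose, with 6.013 and 6.323 CPM against 3.829 and 2.688 CPM (0.92 ± 0.21). With the replicate block 2 rose. Without CTR replicate 2 the counts were 7 lower and 0 higher, and without EPZ-6438 replicate 1 2 were higher. In the same libraries the T cell list summed to 26.31 to 27.13 CPM with EPZ-6438 and 10.71 to 11.26 CPM in CTR, nearly all of it TRAC (24.55 and 25.7 CPM against 9.799 and 9.385 CPM), with CD2 and CD3D at 0. Its part in these changes was not tested.

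With both drugs in SuDHL10, HSPA5 and CALR stood near CTR. Of the 33 members 1 rose and 2 fell (13.7% and 7.93% of all genes). HSPA5 had 862.8 and 917.3 CPM with both drugs, 576.7 and 594.1 CPM with EPZ-6438, 945.5 and 852.4 CPM with VTP50469, and 873.9 and 885.3 CPM in CTR, and its change against CTR was -0.01 ± 0.07 (adjusted p = 0.942). CALR had 1094 and 1107 CPM with both drugs and 1144 and 1022 CPM with VTP50469 (both drugs against CTR 0.05 ± 0.09, adjusted p = 0.763). Only the EPZ-6438 libraries stood apart in these 2 genes. ERN1 rose with both drugs, at 7.578 and 6.583 CPM against 3.829 and 2.688 CPM (1.10 ± 0.21, adjusted p = 0.00975). DNAJC3, a cofactor of BiP, fell, with 40.19 and 41.9 CPM against 51.47 and 62.06 CPM (-0.49 ± 0.13), and EDEM1 had 159.6 and 155 CPM against 180.4 and 198.7 CPM (-0.29 ± 0.10, adjusted p = 0.085). XBP1 (49.29 and 54.43 CPM against 46.29 and 43.2 CPM), ATF6 (45.33 and 47.41 CPM against 48.26 and 60.84 CPM) and EIF2AK3 (41.99 and 45.69 CPM against 41.62 and 47.63 CPM) were not called. With the replicate as a block XBP1 (0.19, adjusted p = 0.0796) was higher and ATF6 (-0.26, adjusted p = 0.0303) lower, and of the chaperones HYOU1 (0.25, adjusted p = 0.0117), SDF2L1 (0.29, 0.0417) and CRELD2 (0.32, 0.00914) were higher and DNAJB11 (-0.17, 0.0853) lower. With the replicate block the counts were 8 higher and 10 lower, with RLE size factors 1 and 4, and with total counts 3 and 0. Without CTR replicate 1 2 were higher, and 0 were lower without CTR replicate 2 or without either library with both drugs. The plasma cell list summed to 282.9 to 293.8 CPM with both drugs and 168.5 to 208.5 CPM in CTR, nearly all of it MZB1, itself a chaperone of antibody folding, with PRDM1, TNFRSF17 and JCHAIN at 0. Its part in these changes was not tested.

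Against EPZ-6438 alone, both drugs in SuDHL10 gave 8 members higher and 1 lower, where 1.77% and 2.7% of all genes were, with a median of 0.16 against 0.00. This contrast and that of EPZ-6438 against CTR share the EPZ-6438 libraries, so low values there enter both. The chi-square per gene between replicates was 21.75 for EPZ-6438 and 16.63 for CTR in SuDHL10. It was 4.196 for VTP50469 and 2.951 for both drugs. HSPA5 was higher by 0.59 ± 0.07 (adjusted p = 0.00896), CALR by 0.68 ± 0.09, MANF by 0.63 ± 0.10, HYOU1 by 0.69 ± 0.11 and XBP1 by 0.48 ± 0.10, and EDEM1 was lower (-0.42 ± 0.10). In the same contrast in KARPAS422, given for 48 h rather than 24 h, HSPA5 had -0.69, CALR -0.35, MANF -0.62 and XBP1 -0.89. As the times differ, the lines are set side by side without a test. The 8 and 1 became 15 and 4 with the replicate block. Both counts were 0 without either library with both drugs, 5 and 0 without EPZ-6438 replicate 2, and 6 were lower without EPZ-6438 replicate 1. VTP50469 alone gave 0 members and 0% of all genes in either direction in SuDHL10. By edgeR at an unadjusted p under 0.05, 0 members were called in either direction, and by DESeq2 likewise 0. Of all genes these gave 451 higher and 273 lower, and 6 and 4.

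**Figure D4:**
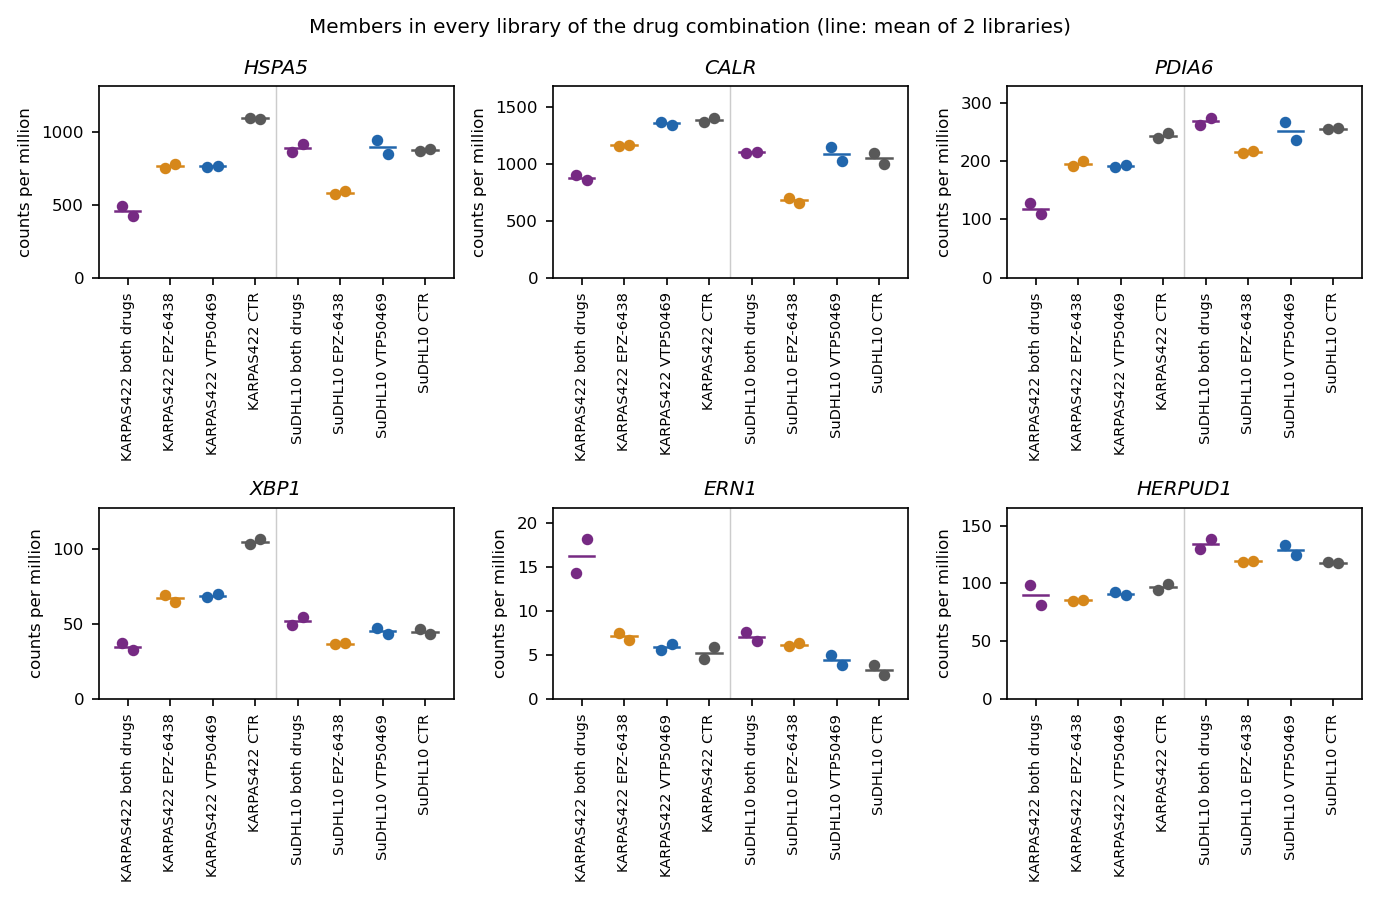
Levels in CPM of HSPA5, CALR, PDIA6, XBP1, ERN1 and HERPUD1 in each library of KARPAS422 (48 h) and SuDHL10 (24 h), ordered both drugs, EPZ-6438, VTP50469 and CTR; each point is 1 library and each short line the mean of 2. HSPA5 with both drugs lies at 494.8 and 421.6 CPM in KARPAS422, below its CTR, and at 862.8 and 917.3 CPM in SuDHL10, beside its CTR and above EPZ-6438 alone.

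Between the controls of the 2 lines, SuDHL10 was higher than KARPAS422 for 6 of 34 tested members and lower for 14 (30.6% and 31.8% of 11647 genes). With total counts as scale, which moved the median of all genes to -0.19, these were 3 and 19, and the lower count was 8 without either SuDHL10 CTR library. HSP90B1 had 173.5 and 189.7 CPM in SuDHL10 and 1522 and 1343 CPM in KARPAS422 (-2.95 ± 0.14). XBP1 (-1.19 ± 0.15) and ATF6 (-1.33 ± 0.16) were also lower in SuDHL10. The groups did not overlap in any of the 3. As the drugs were given for 48 h in KARPAS422 and 24 h in SuDHL10, line and time cannot be told apart here.

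The lists of related genes moved with both drugs in KARPAS422 as well. Of all genes, 23.5% rose and 25.2% fell in that comparison. Of the 52 tested other genes of the endoplasmic reticulum 5 rose and 27 fell, with SEC13, a coat protein, at -0.80 and ERO1B, an oxidase that recharges the isomerases, at 2.00. On the ATF4 and CHOP list 4 rose and 5 fell of 12, with DDIT4 at 1.45 and ASNS at -1.15. Of 14 cytosolic and mitochondrial chaperones 1 rose and 12 fell, with HSPA8 at -1.66. In SuDHL10 with EPZ-6438 alone, 12.1% of all genes rose and 5.39% fell. Of 51 other genes of the endoplasmic reticulum 1 rose and 3 fell. On the ATF4 and CHOP list of 12 tested 7 rose and 0 fell, with CHAC1 at 1.29 and DDIT4 at 0.83. Among the cytosolic and mitochondrial chaperones 1 rose and 11 fell.

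In KARPAS422, which is in both experiments with separate controls, 17 members fell with MI-503 (of 26 that fell there) and with both drugs (of 18 that fell there), and WFS1 rose in both (of 3 and of 2). As 26 of 36 and 18 of 35 tested members fell, many shared falls follow from these counts alone. Of all genes, 26.3% fell with MI-503 and 25.2% with both drugs, and the share that fell in both was not counted. The drugs, doses and times differ between the experiments. XBP1 had the largest fall of the called members in both, -1.31 with MI-503 and -1.55 with both drugs. ERN1 was not called with MI-503 (0.12) and rose with both drugs (1.66), and HERPUD1 fell with MI-503 (-0.85) and was not called with both drugs (-0.07).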

How the data were processed

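RNA was extracted (the labels name an AllPrep kit, the methods Trizol) and depleted of ribosomal RNA. The authors aligned the reads to hg38 by HISAT2 (2.1.0) and summed them by gene in featureCounts (1.6.1). What they deposited are whole-number counts that were not normalized. CASAVA (1.7) and Picard (2.23.1) are named in the submitters' processing notes. The sources give no strand setting for counting, which matters for overlapping genes. All columns matched a sample.

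From these counts, genes were kept by filterByExpr and normalized by TMM. Tests were those of edgeR's quasi-likelihood fit (edgeR 4.0.16, R 4.3.3, limma 3.58.1), with Benjamini-Hochberg adjustment over all genes tested and a call at an adjusted p under 0.1, in some counts also a fold above 1.5. MI-503 was tested within each line (4 libraries), and the difference between lines as an interaction (8 libraries). The drug combination was fitted on the 8 libraries of a line, and baselines on the 8 DMSO or the 4 CTR libraries. Changes are log2 values with standard errors from the fit. CPM levels use TMM over the 16 libraries of an experiment. Levels per kb use the length of the canonical transcript. Promoter windows are from RefSeq (GRCh38.p14).

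The members and all lists were chosen with earlier results of these data known. Every member may be named. Values of each library are given for ATF6, ERN1, EIF2AK3, XBP1 and HSPA5, and for up to 4 members with the smallest p in each direction of the MI-503 comparisons, of the difference between KARPAS422 and SUDHL5, and of both drugs against CTR; other members whose library values are shown were added with their values known. Of other lists, up to 4 called genes with the smallest p in each direction may be named. Where a member was named for its small p or with values known, a lack of overlap between its libraries is no added support.

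Replicate numbers come from the labels. Deviations from group means of same-numbered libraries correlated at 0.65 to 0.864 in KARPAS422 and 0.109 to 0.471 in SuDHL10 over the pairs of groups of the drug combination, and the numbers were taken to pair these libraries within a line. The main fits of the drug combination nevertheless ignored this pairing. Their counts, errors and p-values are without it, and the replicate block, given as an alternative, moved several counts. In the MI-503 experiment they correlated at -0.248 to 0.00715 and were not taken as pairs. No 2 replicates were identical, and the chi-square per gene between them was 1.74 to 5.657 and 1.698 to 41.85 in the 2 experiments. The alternatives were DESeq2 (1.42.0), RLE size factors, scaling by total counts, keeping all genes with a count, the replicate block, other sets of libraries in the fit, and each library left out in turn. The scripts were tested on simulated counts.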

Additional observations from a re-analysis of the deposited data

Results flagged for a closer look

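The change with MI-503 differed between lines for most of the 37 genes. In the interaction of KARPAS422 and SUDHL5, 30 members had a lower change in KARPAS422 and 1 a higher one (17% and 19% of all genes). That the directions differ in this pair of lines was known from earlier results of these data. The difference was -2.21 for CALR, -1.89 for HSPA5, -1.62 for HSP90B1, -1.62 for XBP1, and -1.48 for HERPUD1 (log2). It was -0.57 for ERN1, a call lost without any of 4 single libraries (adjusted p = 0.124 to 0.27), and 0.28 for EIF2AK3, a call lost without replicate 1 of any of the 4 groups (0.118 to 0.366). For CALR, HSPA5, HSP90B1, XBP1 and HERPUD1 the MI-503 and DMSO libraries did not overlap in either line. CALR, HSP90B1 and HERPUD1 were named with their p or values known, so this separation is no added support. The share of all genes without overlap was not counted. Against DB, 25 members had a lower change in KARPAS422 and 6 a higher one (19.7% and 27.2% of all genes). Against Farage, 18 had a lower change in KARPAS422 (14.7% of all genes), a count that was 7 without Farage DMSO replicate 1, 9 to 11 without any KARPAS422 library or Farage DMSO replicate 2, and 9 by DESeq2.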

How the results depend on the processing

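Over 40 counts of called members and 448 alternatives, 368 stayed within 1.5 times and 80 did not. Of 7973 values of single members under an alternative, 7362 kept the side of the threshold, and those called in both fits also kept direction. Of the others, 387 lost the call, 217 gained it and 7 that were called in either fit reversed direction. Changes of direction in values called in neither fit were not counted. The cause of these moves was not tested. Counts below are of members, higher or lower as in the report. Apart from DESeq2, calls over all genes under an alternative were not counted. A count of members may therefore move along with the calls over all genes.

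DESeq2 gave 2 higher in Farage with MI-503, 1 lower in SUDHL5, 9 lower in KARPAS422 minus Farage, 11 lower with EPZ-6438 and 3 lower with VTP50469 in KARPAS422, 14 lower with both drugs against EPZ-6438 in KARPAS422 and 1 lower with both drugs in SuDHL10. Without a filter there were 11 lower in KARPAS422 minus Farage, 1 lower with VTP50469 in KARPAS422, 5 lower with both drugs in SuDHL10 and 2 lower there against EPZ-6438. RLE size factors gave 2 lower with VTP50469 in KARPAS422 and 4 lower with both drugs in SuDHL10. Total counts alone gave 3 lower with VTP50469 and 4 higher with both drugs in KARPAS422, 3 higher there against EPZ-6438, 3 higher and 0 lower with both drugs in SuDHL10, and 3 higher in SuDHL10 against KARPAS422 CTR. All 16 MI-503 libraries in a single fit gave 9 lower in Farage. The 2 groups alone gave 11 lower with EPZ-6438, 2 lower with VTP50469 and 1 higher with both drugs in KARPAS422, 5 lower there against EPZ-6438, and in SuDHL10 4 lower with EPZ-6438, 3 higher with both drugs, and 5 higher and 0 lower against EPZ-6438.

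With the replicate block there were 2 lower with VTP50469 in KARPAS422, 2 higher and 18 lower with both drugs against EPZ-6438 there, 2 higher with EPZ-6438 in SuDHL10, 8 higher and 10 lower with both drugs, 15 higher and 4 lower against EPZ-6438, and 3 higher and 8 lower in SuDHL10 against KARPAS422 CTR, where lines share a number only. The block moved no other count by over 1.5 times. In the MI-503 experiment, where same-numbered libraries did not deviate together, it left 3 higher and 26 lower in KARPAS422. A crossed pairing in SUDHL5, deep with deep and shallow with shallow libraries, chosen after seeing the data, gave 30 higher and 3 lower.

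Leaving out 1 library at a time gave 1 to 5 higher and 3 to 15 lower in Farage, 1 to 3 lower in SUDHL5, 0 to 1 higher in KARPAS422 minus SUDHL5 and 7 to 21 lower in KARPAS422 minus Farage. In KARPAS422 it gave 0 to 8 lower with EPZ-6438, 1 to 3 higher and 14 to 30 lower with both drugs, and 0 to 2 higher and 0 to 30 lower against EPZ-6438. In SuDHL10 it gave 0 to 2 higher and 7 to 12 lower with EPZ-6438, 1 to 2 higher and 0 to 2 lower with both drugs, 0 to 12 higher and 0 to 6 lower against EPZ-6438, and 4 to 4 higher and 8 to 11 lower than KARPAS422 CTR.

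Values that reversed were those of HERPUD1 (-0.258 to 0.29 without single libraries) and EIF2AK3 (-0.344 to 0.405) for both drugs against EPZ-6438 in KARPAS422, lowest without replicate 1 of both drugs, and with total counts alone the baselines of PDIA4 (0.115), SEL1L (0.0163) and DERL2 (0.12) in KARPAS422, CALR (-0.0495) in Farage and SEC61B (-0.0765) in SUDHL5. With 2 libraries a group, low genes such as WFS1, CREB3L2 and ERN1 carry the largest errors.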
